A study of Mus musculus with 2 samples.

Results

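The tetraspanins are a family of membrane proteins with a shared set of membrane-spanning helices. The 7 genes described here, Cd9, Cd63, Cd81, Cd82, Cd53, Cd37 and Cd151, were chosen by name, and all 7 were found among the 31053 gene rows of a single-cell RNA table. The cells were labelled as microglia and macrophages of the optic nerve, through which the axons of the retina reach the brain. The injured cells came from Wildtype 129S1/SvlmJ mice of both sexes whose nerve was crushed at 8 weeks of age and collected 2 weeks later, at 10 weeks of age. The uninjured cells came from Wildtype 129S1/SvlmJ mice of both sexes with no crush, also collected at 10 weeks of age. Each group was 1 library, and the sources used here do not give how many animals it held.

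Tetraspanins gather integrins, immunoglobulin-domain proteins, proteases and other receptors into patches of the cell membrane, and several of them travel through endosomes into extracellular vesicles. In phagocytes they take part in adhesion, cell fusion, antigen presentation and the sorting of cargo to lysosomes. Cd9 and Cd63 transcripts are often seen among the genes of microglia that surround plaques or clear myelin, while Cd53 and Cd37 are found across most leukocytes.

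Counts are of unique molecular identifiers (UMIs), the tags that mark captured transcripts, and levels are CPM, a gene's UMIs divided by all UMIs of the library or class and multiplied by 1000000. The injured library held 727 cells and 3697992 UMIs, and the uninjured library held 51 cells and 87499 UMIs. With 1 library per group there is no replicate check and no test; intervals are exact 95% intervals (Poisson for levels, conditional binomial for ratios, Clopper-Pearson for shares of cells) and cover counting error only. A count of 0 allows up to 3 UMIs, which for the injured library is 0.811 CPM and for the uninjured library 34.3 CPM. No barcode was shared between the libraries. All 10 of the listed macrophage and microglia markers were detected in both libraries, with a summed level of 40753 CPM in injured cells against 28755 CPM in uninjured cells. One uninjured cell stood apart: of its 11100 UMIs, 10194 were haemoglobin, and it held 0 UMIs of every tetraspanin described here. A gene is called higher or lower here where the ratio on the log2(CPM + 10) scale passed 1.5, a rule of size and not a test.

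Cd9, Cd63, Cd81 and Cd53 are shown with the 250 bases before their RefSeq start. The first 3 are shown because they had the largest counts and are the members the results turn on. Cd53, a leukocyte tetraspanin, is shown because it stayed near the same level in both libraries. The bases are from the RefSeq promoter table (GRCm38.p6), which had entries for all 7 genes (4 for Cd82 and 2 for Cd151). Capitals mark matches on either strand to the GC box, spelled GGGCGG, and to the core of sites of the myeloid factor PU.1, spelled GAGGAA. The E-box, spelled CACGTG, and the TATA box, spelled TATAAA, were also searched. No matches overlapped. The windows are chr6:125494761-125495010 on the minus strand for Cd9, chr10:128909095-128909344 on the plus strand for Cd63, chr7:143052500-143052749 on the plus strand for Cd81 and chr3:106790150-106790399 on the minus strand for Cd53.
Cd9: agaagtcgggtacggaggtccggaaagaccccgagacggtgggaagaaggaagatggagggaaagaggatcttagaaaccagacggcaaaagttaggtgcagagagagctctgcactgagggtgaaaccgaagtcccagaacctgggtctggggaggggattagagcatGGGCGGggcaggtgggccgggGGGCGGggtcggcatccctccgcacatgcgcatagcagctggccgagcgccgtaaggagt
Cd63: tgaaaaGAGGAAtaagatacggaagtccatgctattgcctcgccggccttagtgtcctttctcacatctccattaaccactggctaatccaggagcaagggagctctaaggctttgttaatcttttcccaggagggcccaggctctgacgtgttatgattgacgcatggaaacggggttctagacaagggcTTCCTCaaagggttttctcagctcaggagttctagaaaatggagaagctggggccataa
Cd81: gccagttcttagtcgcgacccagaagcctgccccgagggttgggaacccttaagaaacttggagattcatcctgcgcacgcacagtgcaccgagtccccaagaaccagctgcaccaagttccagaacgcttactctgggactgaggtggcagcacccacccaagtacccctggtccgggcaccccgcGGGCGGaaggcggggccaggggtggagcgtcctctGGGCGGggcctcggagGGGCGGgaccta
Cd53: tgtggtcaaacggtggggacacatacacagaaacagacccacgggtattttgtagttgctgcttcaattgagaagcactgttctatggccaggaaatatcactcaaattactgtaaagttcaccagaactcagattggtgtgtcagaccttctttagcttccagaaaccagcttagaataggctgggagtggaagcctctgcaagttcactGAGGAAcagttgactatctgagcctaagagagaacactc
The Cd9 window held the GC box at 2 places and the Cd81 window at 3 places, against a share of 32.7% of all 32851 promoter windows with at least 1. The Cd63 window held the PU.1 core at 2 places and the Cd53 window at 1 place, against 23.3% of all windows. Neither the E-box, found in 6.02% of windows, nor the TATA box, found in 12.4%, was in these 4 windows. These are matches of letters and not sites.

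In mm10 (GENCODE vM21) Cd9 lies at chr6:125460266-125494791, Cd63 at chr10:128900989-128912822, Cd81 at chr7:143052739-143067934, Cd82 at chr2:93419111-93463140, Cd53 at chr3:106759921-106790149, Cd37 at chr7:45233632-45239115 and Cd151 at chr7:141467392-141471473. All are protein coding. The Cd63 window shown above lies wholly inside its gene span, and the Cd9 and Cd81 windows reach a few bases into theirs. The RefSeq starts of those windows thus differ from these gene starts. Cd37 shares 13 exon bases at its 3' end with Tead2 on the other strand. The other members shared no exon base with another gene within the last 1000 bases of their 3' end, where this chemistry reads.

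Across all cells the family split. Cd63 and Cd9 were higher in injured cells, Cd81 and Cd82 were lower, Cd53 and Cd37 each differed by under 1.5 times between the libraries, and Cd151 was too scarce to place. By the rule of size 3 of 7 members were higher, counting Cd151, where 32.8% of the 4021 compared genes were higher, and 2 of 7 were lower, where 21.8% of genes were lower. The median log2 ratio of the 7 members was -0.29, and that of all compared genes was 0.17. The 7 genes together made up 5806 CPM in injured cells against 3497 CPM in uninjured cells. Cd63 supplied 41.5% of their UMIs in injured and 9.15% in uninjured cells, and Cd81 supplied 12.0% in injured and 45.4% in uninjured cells.

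**Figure D1:**
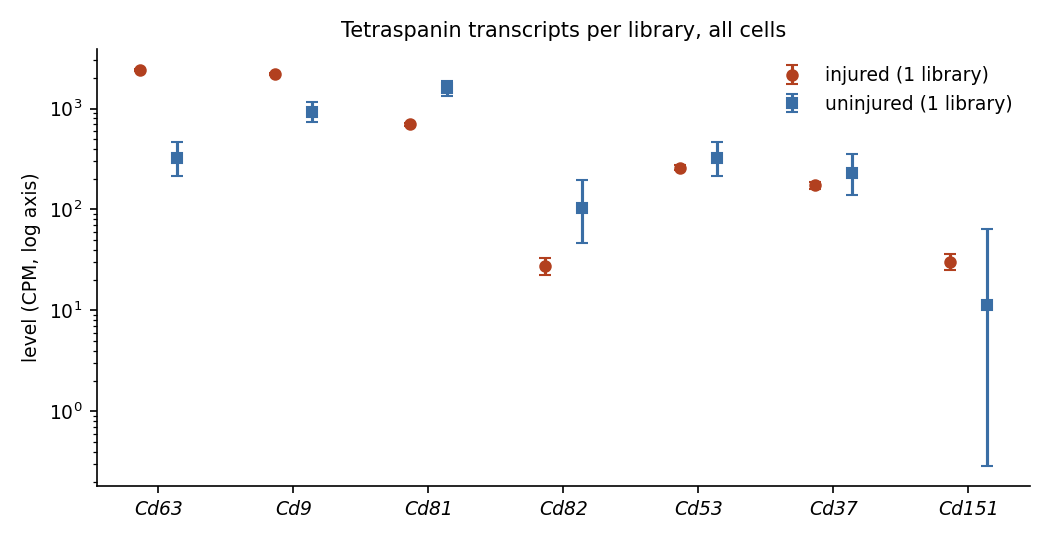
Level of each tetraspanin gene (CPM, log axis) in the injured library (circles) and the uninjured library (squares), all cells, 1 library each; bars are exact 95% Poisson intervals. Cd63 stood at 2408 CPM in injured cells against 320 CPM in uninjured cells, while Cd81 stood at 699 CPM in injured cells against 1589 CPM in uninjured cells.

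Cd63, the tetraspanin of late endosomes, lysosomes and exosomes, had the largest ratio of the 7. It stood at 2408 CPM (2358 to 2458; 8903 UMIs) in injured cells and 320 CPM (213 to 463; 28 UMIs) in uninjured cells, a ratio of 7.52 (5.202 to 11.3). A Cd63 UMI was seen in 545 of 727 injured cells (74.97%) and in 10 of 51 uninjured cells (19.6%). The 5 uninjured cells with most Cd63 held 82.1% of its uninjured UMIs, so that level rests on few cells.

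Cd9, a surface tetraspanin that binds integrins and immunoglobulin-domain proteins and restrains the fusion of macrophages, was higher in injured cells by less. It stood at 2207 CPM (2160 to 2256; 8162 UMIs) in injured cells against 926 CPM (735 to 1151; 81 UMIs) in uninjured cells, a ratio of 2.38 (1.92 to 3.01). Its UMIs were found in 522 injured cells (71.8%) and in 28 uninjured cells (54.9%), so unlike Cd63 it was present in most cells of both libraries. With each cell given the same weight the levels were 1888 CPM in injured cells against 1193 CPM in uninjured cells, a ratio of 1.58.

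Cd81, a surface tetraspanin that binds other membrane proteins of the immunoglobulin family, went the other way. It stood at 699 CPM (673 to 727; 2586 UMIs) in injured cells against 1589 CPM (1335 to 1876; 139 UMIs) in uninjured cells, 2.27 times lower (1.90 to 2.70). Among injured cells 50.9% held a UMI, and among uninjured cells 74.5% did. When each cell was thinned to 500 UMIs, a Cd81 UMI was left to 24.4% (21.3 to 27.6) of the injured and 57.1% (42.2 to 71.2) of the uninjured cells. At that same depth Cd63 was left to 53.2% (49.5 to 56.9) of the injured and 10.2% (3.40 to 22.2) of the uninjured cells, and Cd9 to 49.5% (45.8 to 53.2) of the injured and 46.9% (32.5 to 61.7) of the uninjured cells. The intervals of Cd9 overlap at this depth, and its ratio of thinned UMIs was 1.36 (0.964 to 1.98). Thinning left out 0 injured and 2 uninjured cells.

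Cd82, a tetraspanin named for its restraint of tumour cell movement, was scarce. It had 27.3 CPM (22.3 to 33.2; 101 UMIs) in injured cells against 103 CPM (47.0 to 195; 9 UMIs) in uninjured cells, 3.77 times lower (1.67 to 7.44). The 9 uninjured UMIs lay in 6 cells, and with each cell given the same weight the levels were 33.1 CPM in injured cells against 55.1 CPM in uninjured cells, a ratio of 0.601. Of the 101 injured UMIs, 11 lay in the 5 injured cells with at least 2 T cell genes, all 5 of which carried Cd82 at a summed level of 505 CPM, against 24.5 CPM in the other 722 injured cells.

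Cd53 and Cd37, which are largely confined to leukocytes and organise receptors there, were within 1.5 times between the libraries when all UMIs were summed. Cd53 stood at 260 CPM (244 to 277; 962 UMIs) in injured cells against 320 CPM (213 to 463; 28 UMIs) in uninjured cells, a ratio of 0.813 (0.559 to 1.23). Cd37 stood at 174 CPM (161 to 188; 645 UMIs) in injured cells against 229 CPM (140 to 353; 20 UMIs) in uninjured cells, a ratio of 0.763 (0.490 to 1.26). Both intervals include 1, and both also include ratios past 1.5 times lower, so a modest difference was not detectable at this depth. The call for Cd37 changed with the weighting: with each cell given the same weight it stood at 143 CPM in injured cells against 277 CPM in uninjured cells, a ratio of 0.516, and it passed 1.5 times lower under 5 of 11 alternatives. Cd151, the partner of laminin-binding integrins, had 30.3 CPM (112 UMIs) in injured cells and 11.4 CPM in uninjured cells, where it rests on 1 UMI; the ratio of 2.65 has an interval of 0.466 to 106.

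The 5 injured cells with T cell genes give the nearest reading of background from free RNA, although T cells can express several tetraspanins themselves. Their median depth was 5387 UMIs, against 1121 in the other injured cells. Cd9 and Cd81 were seen in 0 of 5 of them (exact upper bound 52.2%), against 72.3% and 51.2% of the other 722 injured cells. Cd63 was seen in 2 of 5, at 91.9 CPM, against 2421 CPM in the others.

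The cells were next split by depth and by Malat1, a nuclear RNA whose share differs between whole cells, nuclei and cell fragments. Deep cells had at least 5000 UMIs (144 injured, 4 uninjured). Shallow cells were divided at 1.0% of UMIs from Malat1 into Malat1-rich (91 injured, 17 uninjured) and Malat1-poor cells (492 injured, 30 uninjured). The classes are not alike between the libraries: the median mitochondrial share was 10.7% in injured and 3.11% in uninjured Malat1-rich cells, and 0.503% in injured and 8.11% in uninjured Malat1-poor cells. The summed level of the macrophage and microglia markers was 14595 CPM in injured cells against 33733 CPM in uninjured Malat1-rich cells. The part these play in the ratios by class was not tested.

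**Figure D2:**
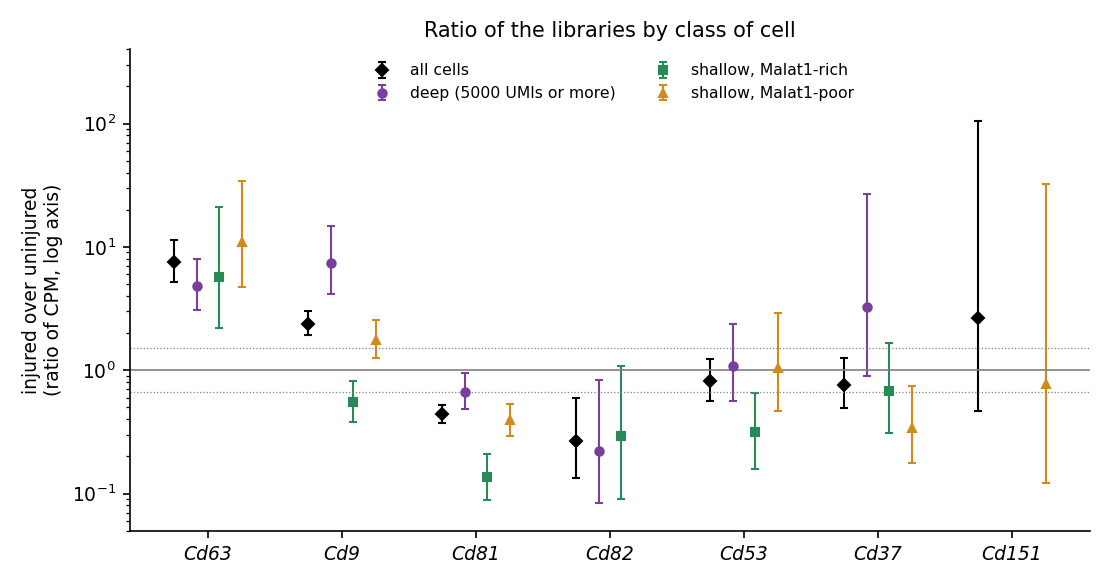
Injured over uninjured ratio of each tetraspanin gene (log axis) in all cells and in the 3 classes; bars are exact 95% conditional binomial intervals, the grey line is a ratio of 1, dotted lines are 1.5 either way, and points with 0 uninjured UMIs are left out. Cd63 lay above 1.5 and Cd81 below 1 in every class, while Cd9 ran from 7.42 in deep cells to 0.549 in Malat1-rich cells.

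Cd63 was higher in injured cells of every class. In deep cells it stood at 2552 CPM in injured cells against 529 CPM in uninjured cells, a ratio of 4.83 (3.09 to 8.02). In Malat1-rich cells it stood at 891 CPM in injured cells against 156 CPM in uninjured cells, a ratio of 5.71 (2.18 to 21.2). In Malat1-poor cells it stood at 2129 CPM in injured cells against 193 CPM in uninjured cells, a ratio of 11.1 (4.72 to 34.1). The 3 intervals overlap.

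Cd9 did not keep its direction. In deep cells it stood at 2272 CPM in injured cells against 306 CPM in uninjured cells, a ratio of 7.42 (4.15 to 14.9), and in Malat1-poor cells at 2314 CPM in injured cells against 1310 CPM in uninjured cells, a ratio of 1.77 (1.26 to 2.56). In Malat1-rich cells it stood at 772 CPM in injured cells against 1406 CPM in uninjured cells, 1.82 times lower (1.23 to 2.65). The Malat1-rich interval overlaps neither of the other intervals. Injured Malat1-rich cells also held the least Cd63 and Cd81 of the 3 injured classes.

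Cd81 was lower in injured cells of both shallow classes. It stood at 250 CPM in injured cells against 1835 CPM in uninjured Malat1-rich cells, 7.35 times lower (4.77 to 11.4), and at 816 CPM in injured cells against 2081 CPM in uninjured Malat1-poor cells, 2.55 times lower (1.89 to 3.39). In deep cells it stood at 704 CPM in injured cells against 1057 CPM in uninjured cells, 1.503 times lower (1.06 to 2.07) and just short of the rule of size. Without the haemoglobin-rich cell, a choice made after its counts were seen, the deep uninjured level was 1530 CPM and Cd81 was 2.174 times lower (1.53 to 2.995) in injured cells; without that cell the deep ratio of Cd9 was 5.13 and that of Cd63 was 3.34.

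The 4 deep uninjured cells can be given one by one. The haemoglobin-rich cell had none of the 7 genes. The cell of 9567 UMIs had 5 UMIs of Cd9, 7 of Cd63 and 12 of Cd81, the cell of 8863 UMIs had 1 of Cd9, 6 of Cd63 and 15 of Cd81, and the cell of 6406 UMIs had 5 of Cd9, 6 of Cd63 and 11 of Cd81. The last 3 cells were alike in Cd63 and Cd81, while Cd9 was low in the second of them. All 45 UMIs that the 4 cells held of the 6 border-associated macrophage markers, given below, lay in 1 cell. The part of that cell in the deep ratios was not tested. Among the 144 deep injured cells Cd63 ran from 0 to 7129 CPM with a median of 2393 CPM, and the 3 uninjured cells with it had 677 to 937 CPM. Cd9 ran from 0 to 8893 CPM with a median of 1930 CPM in deep injured cells, against 113 to 781 CPM in those 3 uninjured cells. Cd81 ran from 0 to 3052 CPM with a median of 578 CPM in deep injured cells, against 1254 to 1717 CPM. All of these uninjured values lie inside the injured range.

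With the Malat1 divide at 2% of UMIs some of these values moved. In Malat1-rich cells the log2 ratio of Cd81 was then -4.15, against -2.83 at 1.0%, and that of Cd63 was 1.75, against 2.44. In Malat1-poor cells the log2 ratio of Cd9 was 0.50, against 0.82, and no longer passed the rule of size.

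The scarcer members gave few readable values by class. Cd53 was level in deep cells, at 270 CPM in injured cells against 250 CPM in uninjured cells. Without the haemoglobin-rich cell the deep uninjured level of Cd53 was 362 CPM, a ratio of 0.745 (0.390 to 1.635). In Malat1-poor cells Cd53 was level at 241 CPM in injured cells against 231 CPM in uninjured cells. It was 3.19 times lower (1.52 to 6.37) in injured Malat1-rich cells, at 159 CPM against 508 CPM in uninjured ones. Cd37 was 2.92 times lower (1.35 to 5.68) in injured Malat1-poor cells, at 132 CPM against 385 CPM in uninjured ones. In deep cells Cd37 stood at 181 CPM in injured cells against 55.7 CPM in uninjured cells, the last on 2 UMIs. Its ratio was 3.24 with an interval of 0.893 to 26.9, and 2.24 (0.617 to 18.6) without the haemoglobin-rich cell. Cd82 had 18 UMIs in injured and 0 in uninjured Malat1-poor cells, and Cd151 had 92 in injured and 0 in uninjured deep cells. Those injured levels of 31.7 and 31.2 CPM lie under what 0 uninjured UMIs allow (116 and 83.5 CPM), so they have no direction.

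By the rule of size 4 members were higher and 1 lower in deep cells, where 49.8% of compared genes were higher and 15.0% lower. In Malat1-rich cells 2 were higher and 4 lower, where 36.4% of genes were higher and 30.7% lower. In Malat1-poor cells 3 were higher and 2 lower, where 47.8% of genes were higher and 19.8% lower. Each of these counts of higher genes includes 1 member with 0 uninjured UMIs: Cd151 in deep and in Malat1-rich cells and Cd82 in Malat1-poor cells. The median log2 ratio of the members was 1.54 for deep cells, where that of all compared genes was 0.58. It was -0.86 for Malat1-rich cells, beside 0.02 for all genes, and 0.06 for Malat1-poor cells, beside 0.49 for all genes.

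**Figure D3:**
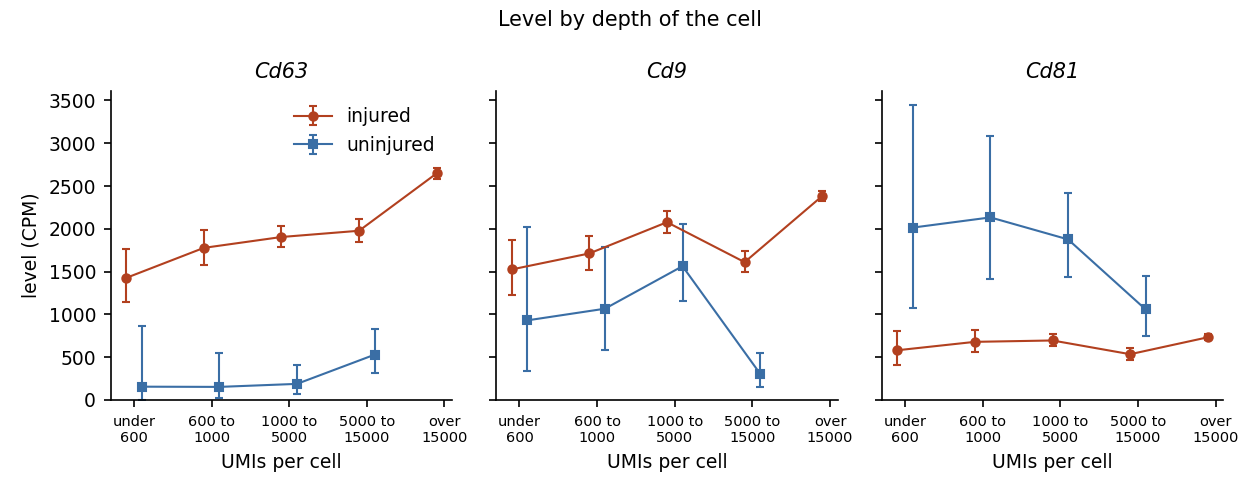
Level of Cd63, Cd9 and Cd81 (CPM) by UMIs per cell in the injured (circles) and uninjured library (squares); bars are exact 95% Poisson intervals, and no uninjured cell had over 15000 UMIs. Injured Cd63 and uninjured Cd81 were each the higher value at every depth both libraries share.

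Within bins of depth Cd63 and Cd81 kept their directions. In cells of under 600 UMIs Cd63 stood at 1426 CPM in injured cells against 155 CPM in uninjured cells, and in cells of 600 to 1000 UMIs at 1777 CPM in injured cells against 152 CPM in uninjured cells. In cells of 1000 to 5000 UMIs it stood at 1904 CPM in injured cells against 188 CPM in uninjured cells, a ratio of 10.2 (4.65 to 27.7). Cd81 was 3.47, 3.14 and 2.70 times lower in injured cells of those bins, and 1.98 times lower (1.36 to 2.80) in cells of 5000 to 15000 UMIs. Cd9 had ratios of 1.64, 1.61 and 1.33 in the bins under 5000 UMIs, each with an interval that reaches 1, and 5.26 (2.92 to 10.6) from 5000 to 15000 UMIs. Among injured cells Cd63 climbed with depth to 2648 CPM (2585 to 2712) in the 99 cells of over 15000 UMIs, while Cd81 stayed between 534 and 732 CPM.

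Markers of other cell types moved with the split. Oligodendrocytes, which make the myelin of this nerve, also express Cd9, Cd81, Cd82 and Tspan2. All 7 oligodendrocyte markers were detected in both libraries, with a summed level of 1164 CPM in injured cells against 8332 CPM in uninjured cells, and at least 1 such UMI in 639 of 727 injured and 51 of 51 uninjured cells. Mbp gave 2586 of those UMIs in injured and 437 in uninjured cells. The astrocyte list, also of cells that express Cd9 and Cd81, stood at 171 CPM in injured cells against 1063 CPM in uninjured cells. Of its 5 markers, 5 were detected in injured and 2 in uninjured cells. Slc1a3 gave 506 of the 634 injured and 87 of the 93 uninjured UMIs, so that level rests largely on 1 gene. The 5 homeostatic microglia markers, all detected in both libraries, stood at 333 CPM in injured cells against 2034 CPM in uninjured cells. Macrophage types shifted as well. At least 1 of the 6 border-associated macrophage markers was found in 42.2% of injured and 3.92% of uninjured cells. Their summed level was 696 CPM in injured cells against 583 CPM in uninjured cells. The 51 uninjured UMIs lay in 2 cells, 45 of them in 1 deep cell. Within that list Ms4a7 stood at 338 CPM in injured cells against 22.9 CPM in uninjured cells, while Lyve1 had 0 UMIs in injured and 8 in uninjured cells. Monocyte markers had 100 UMIs in injured cells, in 26 cells, and 0 in uninjured cells. The part of these macrophage and monocyte lists in the levels of the tetraspanins was not tested. The part of the myelin, astrocyte and microglia lists in the lower Cd81 and Cd82 was not tested, since no uninjured cell lacked a myelin UMI. Within injured cells Cd81 stood at 718 CPM (690 to 747) in the 639 cells with a myelin UMI and 427 CPM (347 to 519) in the 88 without, Cd9 at 2236 and 1775 CPM, and Cd63 at 2411 and 2352 CPM. These pooled values rest largely on the deep cells. There Cd81 stood at 723 CPM (692 to 755) in 135 cells with and 301 CPM (216 to 408) in 9 without a myelin UMI. The median depth of those deep cells was 19544 UMIs with and 11169 UMIs without myelin. The order of Cd9 and Cd63 turned in both shallow classes, and that of Cd81 turned in the Malat1-rich class. In injured Malat1-rich cells Cd9 stood at 684 CPM (558 to 830) with and 1254 CPM (868 to 1752) without a myelin UMI, and Cd63 at 771 and 1549 CPM. Cd81 stood there at 228 CPM (158 to 319) with and 369 CPM (177 to 678) without, with intervals that overlap. In injured Malat1-poor cells Cd9 stood at 2292 and 2466 CPM and Cd63 at 2071 and 2537 CPM. In the same cells, where the myelin level was highest, the interval of Cd81 with myelin (755 to 918 CPM) overlapped that without (511 to 913 CPM). T cell markers had 94 UMIs in injured and 0 in uninjured cells, and platelet markers, whose cells carry Cd9 and Cd63, had 1 UMI in injured and 0 in uninjured cells.

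Spp1 encodes osteopontin, a secreted matrix and cytokine-like protein, and Fn1 encodes fibronectin, a matrix protein bound by integrins that tetraspanins hold. Spp1 stood at 13120 CPM in injured cells against 91.4 CPM in uninjured cells, all 8 uninjured UMIs in 1 cell, and Fn1 at 1114 CPM in injured cells against 149 CPM in uninjured cells. The relation to the tetraspanins was therefore read among injured cells. The 144 deep injured cells were each thinned to 5000 UMIs, and Pearson r was taken over log2(UMIs + 1) and averaged over 20 draws. These cells share 1 library, so r is a description with no p.

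Cd9 and Cd63 went with Spp1, and Cd9 and Cd81 went with Fn1. For Spp1, r was 0.55 with Cd9, a value passed by 1 of 2435 genes, and 0.51 with Cd63, passed by 5. With Cd81 it was 0.21, near the 95th percentile of all genes (0.20). With Cd53, Cd37 and Cd151 it lay between 0.04 and 0.10. The 2435 genes had a UMI in at least 20% of these thinned cells, except Cd82 and Cd151, added as members at 12.5% and 13.2%. Neither the ranks nor the values of r were matched for level. Cd9 and Cd63 had 10.75 and 12.1 thinned UMIs per cell, against 1.35 for Cd53, 0.958 for Cd37 and 0.146 for Cd151. The lower r of the sparse members is thus a weak contrast. For Fn1, r was 0.41 with Cd81, passed by 5 genes, and 0.38 with Cd9, passed by 9, but 0.12 with Cd63, below the 95th percentile of all genes (0.19). Spp1 and Fn1 themselves had an r of 0.40. Cd82 had the lowest values, -0.24 with Spp1 and -0.19 with Fn1, on 0.132 thinned UMIs per cell.

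**Figure D4:**
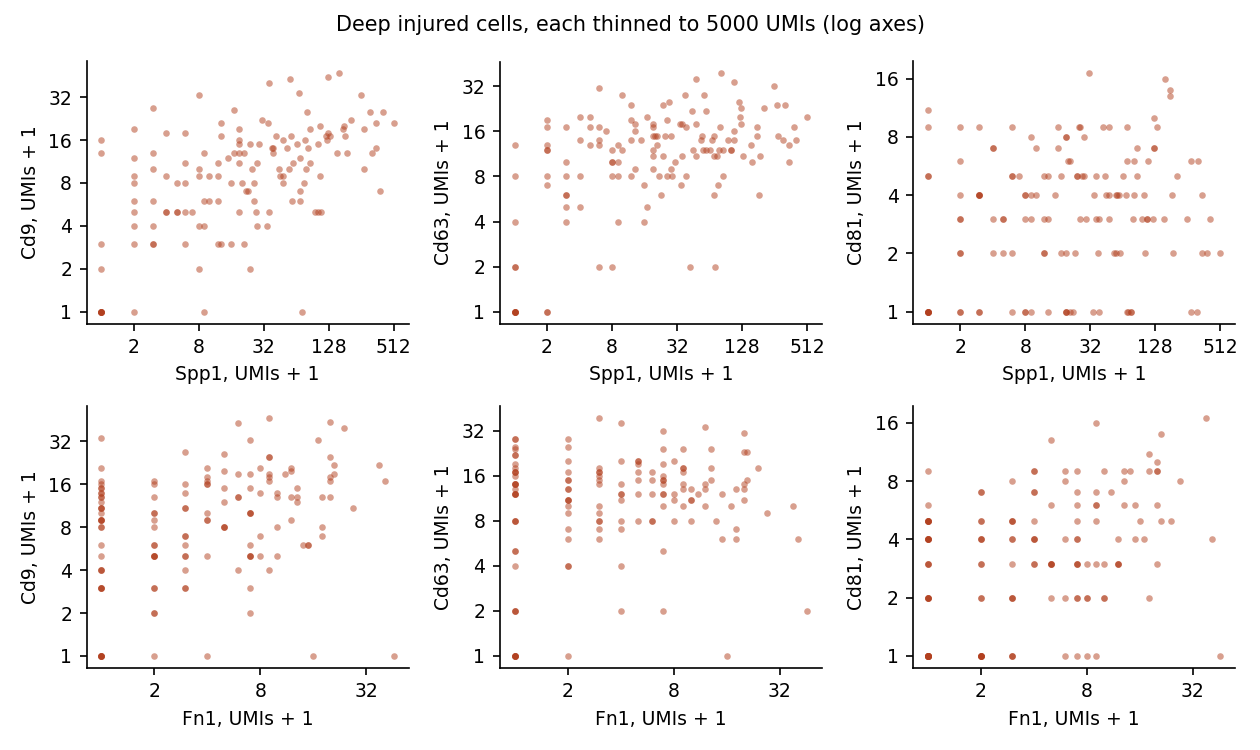
Cd9, Cd63 and Cd81 against Spp1 (upper row) and Fn1 (lower row) in 144 deep injured cells, each thinned once to 5000 UMIs (UMIs + 1, log axes, 1 point per cell). Cd9 and Cd63 climb with Spp1, with r of 0.55 and 0.51, Cd81 and Cd9 climb with Fn1, with r of 0.41 and 0.38, and Cd63 is spread over all Fn1 values.

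The deep cells were also ranked by thinned Spp1 and cut into 3 groups of 48. Cd9 stood at 1250 CPM (1113 to 1400) in the lowest group, 2075 CPM in the middle group and 3125 CPM (2905 to 3357) in the highest group, so the highest was 2.50 times the lowest (2.18 to 2.87). Cd63 stood at 1633, 2554 and 3058 CPM, a ratio of 1.87 (1.65 to 2.12). For Cd81 the ratio was 1.36 (1.07 to 1.72), and for Cd53 (1.22) and Cd37 (1.47) the intervals included 1. The median depth before thinning also differed, from 15798 UMIs in the lowest to 26892 UMIs in the highest group, and its part was not tested. By Fn1 the order changed: Cd81 stood at 358, 650 and 938 CPM, a ratio of 2.62 (2.03 to 3.40), Cd9 had a ratio of 1.95 (1.71 to 2.22) and Cd63 one of 1.15 (1.02 to 1.29). Median depth in the Fn1 groups was 18464, 19595 and 19292 UMIs.

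Within narrower sets of deep cells the values differed. In the 99 cells of over 15000 UMIs, r with Spp1 was 0.40 for Cd9, 0.33 for Cd63 and 0.04 for Cd81, and r with Fn1 was 0.41 for Cd9, 0.31 for Cd81 and -0.04 for Cd63. In the 45 cells of 5000 to 15000 UMIs, r with Spp1 was 0.66 for Cd9, 0.61 for Cd63 and 0.41 for Cd81, and r with Fn1 was 0.58 for Cd81, 0.42 for Cd9 and 0.28 for Cd63. In the 138 deep cells with a C1q UMI, which leaves out cells with no sign of that macrophage and microglia complement, r with Spp1 was 0.45 for Cd9 and 0.38 for Cd63, and r with Fn1 was 0.36 for Cd81, 0.30 for Cd9 and -0.03 for Cd63. Cd81 with Spp1 and Cd63 with Fn1 were thus near 0 in the deepest cells and higher in the 45 shallower ones.

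Shallow injured cells, thinned to 500 UMIs, also showed the Spp1 relation. Cd63 stood at 2107 CPM in the 406 cells with a Spp1 UMI and 916 CPM in the 177 without, a ratio of 2.30 (1.81 to 2.96), with Spp1 and Fn1 left out of the total. Cd9 stood at 2102 CPM with and 1063 CPM without Spp1, a ratio of 1.98 (1.58 to 2.50). Cd81, Cd53 and Cd37 had ratios of 1.23, 0.820 and 0.524, each with an interval that includes 1. By Fn1, Cd9 stood at 2393 CPM in the 168 cells with and 1539 CPM in the 415 cells without a UMI, a ratio of 1.56 (1.295 to 1.86). Cd81 had a ratio of 1.17 (0.841 to 1.60) by Fn1, so its relation to Fn1 in deep cells was not detectable in shallow cells at this depth. In Malat1-rich cells injured Cd9 was lower than uninjured Cd9. There Cd9 stood at 915 CPM in the 44 injured cells with and 341 CPM in the 47 without Spp1, a ratio of 2.69 (1.13 to 7.05). The intervals included 1 in that class for Cd63 by Spp1 (1.79, 0.908 to 3.65) and for Cd9 by Fn1 (1.08, 0.445 to 2.47). In Malat1-poor cells those ratios were 2.19 (1.68 to 2.89) and 1.64 (1.36 to 1.98).

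**Figure D5:**
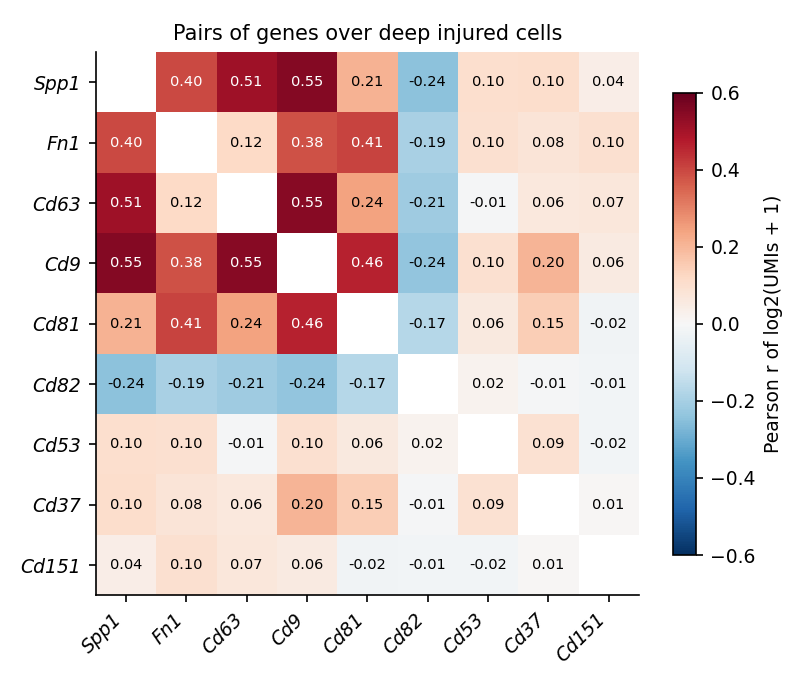
Pearson r of log2(UMIs + 1) for each pair among Spp1, Fn1 and the 7 tetraspanins over 144 deep injured cells thinned to 5000 UMIs. Cd9 has r of 0.55 with Cd63 and 0.46 with Cd81, while Cd53, Cd37 and Cd151 stay between -0.02 and 0.20 with every other member.

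Among themselves the members formed a chain and not a block. Cd9 had an r of 0.55 with Cd63 and 0.46 with Cd81, while Cd63 and Cd81 had 0.24 with each other. Cd82 was negative with these 3 (-0.24, -0.21 and -0.17). Over the 141 cells left without those with T cell genes, r of Cd82 was -0.15 with Spp1 and -0.135 with Fn1. There r with Spp1 and Fn1 was recomputed for all 7 members, and pairs between members are not given. Cd53 and Cd37, seen in 70.8% and 56.3% of the thinned cells, had an r of 0.09. After thinning, 5 of the 7 genes were seen in 52 of the 144 cells, 4 in 50 and 3 in 25, and no cell showed all 7.

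The genes most like each member over the same cells differed. For Cd63 they were the lysosomal cathepsins Ctsb (r 0.77), Ctsd (0.72), Ctsz (0.67) and Ctsl (0.65) and the lipid carrier Apoe (0.66). For Cd9 they included the lipid-sensing receptor Trem2 (0.64), the chemokine Cxcl14 (0.63), Ctsz (0.63) and the lipoprotein lipase Lpl (0.63). For Cd81 they included the matricellular Sparc (0.57), the complement chains C1qa (0.55) and C1qc (0.52) and the protease inhibitor Serpine2 (0.53). The highest r of any gene was 0.20 for Cd53, with Cd52, and 0.24 for Cd37, with Gnas, too weak in sparse counts to read. At the other end, the class II gene H2-Eb1 had -0.48 with Cd63 and -0.41 with Cd9.

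Among the other 24 rows of the family 17 had a UMI, and 8 had a UMI in 5% or more of a library's cells. By the rule of size 1 of these 8 was higher and 4 were lower, where 32.8% of all compared genes were higher and 21.8% lower. Tspan14, which guides the protease ADAM10, stood at 38.1 CPM in injured cells against 103 CPM in uninjured cells, 2.70 times lower (1.21 to 5.27), on 9 uninjured UMIs. Tspan4, known for the retraction fibres of migrating cells, stood at 79.0 CPM in injured cells against 34.3 CPM in uninjured cells, on 3 uninjured UMIs and with an interval of the ratio of 0.780 to 11.2. Tspan13, Tspan2 and Tspan7 were lower on 5, 4 and 4 uninjured UMIs; Tspan2, which oligodendrocytes express strongly, had 12.4 CPM in injured cells against 45.7 CPM in uninjured cells. Tspan3, Tspan31 and Tspan5 lay between the limits, the first 2 at 63.6 and 68.2 CPM in injured and 45.7 and 68.6 CPM in uninjured cells.

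The proteins that tetraspanins work with were read as lists. Of 11 late endosome and lysosome membrane genes with a UMI in 5% or more of a library's cells, among 12 listed, 5 were higher and 0 lower, with a median log2 ratio of 0.58. All compared genes, which had a UMI in 10% or more of a library's cells, had a median of 0.17; 32.8% of them were higher and 21.8% were lower, and the counts of the next lists are read against the same shares. Lamp1, the main glycoprotein of that membrane, stood at 1978 CPM in injured cells against 469 CPM in uninjured cells, a ratio of 4.22 (3.11 to 5.89). Cd68, a macrophage lysosome glycoprotein, stood at 888 CPM in injured cells against 263 CPM in uninjured cells, a ratio of 3.38 (2.25 to 5.34), and Npc2, which moves cholesterol out of lysosomes, at 2203 CPM in injured cells against 823 CPM in uninjured cells, a ratio of 2.68 (2.12 to 3.42). Laptm5, a lysosomal protein of leukocytes, was level at 1408 CPM in injured cells against 1269 CPM in uninjured cells. Atp6v0d2, a subunit of the proton pump, had 171 UMIs in injured and 0 in uninjured cells, and passed the 5% limit through injured cells only. Its ratio was 1.35 against 3 counts over the uninjured library, and the exact lower bound of the ratio was 1.085.

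Of 11 vesicle formation genes, among 16 listed, 6 were higher and 1 was lower (median 0.64), against those shares of 32.8% and 21.8%. Sdcbp, the syntenin that carries CD63 into exosomes, stood at 487 CPM in injured cells against 309 CPM in uninjured cells, a ratio of 1.58 (1.08 to 2.40), and Rab7, the late endosome GTPase, at 153 CPM in injured cells against 68.6 CPM in uninjured cells, a ratio of 2.23 (1.02 to 6.10). Anxa2, Flot1 and Vps4a rest on 1 uninjured UMI each and Tsg101 on 2, and all were counted as higher. These genes passed the 5% limit through injured cells only, so the count of higher genes is partly set by that limit. Of 11 surface partners, among 16 listed, 3 were higher and 3 were lower (median 0.07), near the shares over all compared genes. Ptgfrn was among the higher on 49 injured and 0 uninjured UMIs, and passed the limit through injured cells only. Itgb1, the integrin chain that CD9, CD81 and CD151 bind, stood at 344 CPM in injured cells against 91.4 CPM in uninjured cells, a ratio of 3.76 (1.90 to 8.73), and Igsf8, a direct partner of CD9 and CD81, at 272 CPM in injured cells against 240 CPM in uninjured cells, a ratio of 1.13 (0.738 to 1.84). Icam1, an adhesion receptor found in tetraspanin patches, stood at 206 CPM in injured cells against 983 CPM in uninjured cells, a ratio of 0.209 (0.167 to 0.265). Of 6 MHC class II genes, whose products sit in tetraspanin patches, 6 were lower, with a median of -0.79, where 21.8% of compared genes were lower. Of the 360 uninjured UMIs of Cd74, the invariant chain, 210 lay in 1 cell. For H2-Ab1 the top uninjured cell held 77 of 108, and whether it was the same cell was not checked. With each cell given the same weight the ratio was above 1 for 5 of the 6, at 1.34 for Cd74 and 2.18 for H2-Ab1. H2-DMa stayed lower at 0.416, and its top cell held 12 of its 30 uninjured UMIs. The median log2 ratio was also positive in shallow cells, at 4.07 among Malat1-rich and 0.53 among Malat1-poor cells.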

How the data were processed

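Cells of digested mouse optic nerve were captured with 10x Genomics 3' droplet chemistry (v2), per the labels' protocols. The submitters' processing notes name Cell Ranger 1.3, bcl2fastq 2.17.1.14, Seurat 4.0.3 and mm10; the sources used here name no annotation release. The values the authors deposited are whole UMI counts in 1 table, not normalized, whose second line names the condition of every cell. Per the series' design text 778 macrophages and microglia with 200 to 6500 genes were kept; how cells were selected is not given, and the selection bears on markers of other cell types. Strand handling in counting is not stated.

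The members and lists were chosen with earlier results of these data known. UMIs were summed per library or class and scaled to CPM; log2 ratios used a pseudocount of 10 CPM. Compared genes had a UMI in 10% or more of a library's cells (4021), list genes in 5%. Named genes were the 7 members, other family genes seen in 5% of cells, up to 4 genes per partner list with the largest absolute log2 ratio, up to 3 markers per cell type and the 5 genes most like each member, of which some are not reported here; Laptm5, Igsf8, Rab7, Sdcbp, H2-Eb1 and the class II direction were added after their values were seen. No doublet caller was run, so doublets among the deepest cells were not removed. Of the rows, 26 with date-like names stayed in totals only. Protein sequences were not used here. The rule of size and the intervals were run on simulated Poisson counts per library with known folds. That run left out genes with the fewest expected uninjured UMIs and did not cover clumping of UMIs by cell. Alternatives varied the pseudocount, weights, filters, cells, denominators, thinning and class limits. Python 3.11.15, numpy 2.4.6, scipy 1.17.1, pandas 2.3.3 and matplotlib 3.10.9 were used.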

Additional observations from a re-analysis of the deposited data

Results flagged for a closer look

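Cd9 pointed in opposite directions in classes of cells: the injured over uninjured ratio was 7.42 in deep cells, 1.77 in Malat1-poor cells and 0.549 in Malat1-rich cells. The deep ratio of Cd9 rests on 11 uninjured UMIs and was 5.13 without the haemoglobin-rich cell. Median depth of the deep cells was 19206 UMIs in injured and 9215 UMIs in uninjured cells. Cd37 had a ratio of 3.24 in deep cells, on 2 uninjured UMIs, and 0.342 in Malat1-poor cells. With 1 library per group these differences between classes were not tested.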

How the results depend on the processing

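Cd63 stayed higher and Cd81 and Cd82 stayed lower in injured cells under all 11 alternatives run on their levels, with log2 ratios of 2.65 to 3.33, -1.77 to -1.13 and -1.95 to -0.60. For Cd82 these values rest on at most 9 uninjured UMIs. Thinned to 500 UMIs per cell its ratio was 0.371 (0.081 to 3.44), on 2 uninjured UMIs. Cd9 kept its sign under all 11, from 0.39 to 1.43, but fell short of the rule of size under 3: cells under 5000 UMIs (0.52), the deepest 10% of the cells of each library left out (0.39) and thinning to 500 UMIs (0.44). Cd37 passed 1.5 times lower under 5, Cd53 under 2, and Cd151 missed the call under 2. In cells under 5000 UMIs 1 member was higher and 4 were lower; without those deepest cells 4 were lower; of the 5 members seen in at least 20% of cells 1 was lower. The other 35 of 39 counts and medians stayed within wide limits: 1.5 times for counts, and the counting interval of Cd53, the middle member, for medians. Within those limits the median log2 ratio of the members still went from -0.29 to -0.71 in cells under 5000 UMIs. Dividing Malat1 classes at 2% reversed Cd82 in Malat1-poor cells (log2 ratio of -0.85), where 0 uninjured UMIs set the main value. Of 84 correlations recomputed, 16 moved by 0.1 or more. The alternatives of C1q-positive cells, of T cell genes left out and of 5000 to 15000 UMIs were chosen after seeing the data. No paired analysis was possible because each group has 1 library. Depth limits all ratios through the 87499 uninjured UMIs.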
